A study of Mus musculus with 4 samples.

Results

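A set of 10 genes that mark dentate granule cells was followed across the hippocampal RNA-Seq libraries: Prox1, C1ql2, Npnt, Dsp, Pdzd2, Trpc6, Calb1, Stxbp6, Tdo2 and Lct. They were found by symbol among the 22609 gene symbols counted in each library, and all 10 were present and passed the filter on low counts that left 14527 genes. The set was chosen by its counts in these same libraries, with the difference between FBN-ARO-KO+GCI and FLOX+GCI in view, so the genotype differences of its genes are given as a description, without a test. Granule cells are the small, densely packed excitatory neurons of the dentate gyrus. They receive the main cortical input to the hippocampus and send mossy fiber axons to mossy cells and to CA3 pyramidal cells, and they are among the few neurons generated in the adult rodent brain. In rodents they are known to survive global ischemia better than CA1 pyramidal cells.

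The 4 libraries comprised 2 of the group FLOX+GCI and 2 of FBN-ARO-KO+GCI, where GCI is global cerebral ischemia. FBN-ARO-KO mice carry floxed Cyp19a1, the gene of aromatase, which makes estradiol from androgens, and Cre driven by the CaMKIIα promoter in excitatory neurons of the forebrain. FLOX mice are their controls. All mice were ovariectomized females aged 3 to 5 months, with ovaries removed 1 week before both common carotid arteries were occluded for 20 min, and hippocampal RNA was taken after 24 h of reperfusion. Both groups therefore share ovariectomy and ischemia, and no library without ischemia was analysed here. Neither the labels nor the methods say that the libraries of a group came from separate mice, and the submitters' design text speaks of runs in duplicate, so the spread between them may be technical.

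Counts on genes totaled between 24333396 and 33076795 per library. Values below are CPM, counts scaled to library size with TMM, at which 3 counts correspond to between 0.0905 and 0.122 CPM, a floor that covers counting error only. Replicates differed by more than sampling noise, with a chi-square per degree of freedom of 10.8 in FLOX+GCI and 12.8 in FBN-ARO-KO+GCI. The targeted gene, Cyp19a1, was counted 4 times and 1 time in the FLOX+GCI libraries and 2 times in each of the others, which is too little to check the genotypes. Across the tested genes, 2 (0.0138%) passed an adjusted p of 0.05 in edgeR's quasi-likelihood test, and none of the 10 markers was among them. Some other fits gave longer lists, each with 2 markers. These were DESeq2 (279 of 17821 genes called), the likelihood ratio test (294 of 14527) and the replicate number as a block (184 of 14527).

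Of the 10 markers, 9 had a higher fitted level in FBN-ARO-KO+GCI and C1ql2 had a lower one. For 7 markers (Prox1, Npnt, Dsp, Calb1, Stxbp6, Tdo2 and Lct) both FBN-ARO-KO+GCI libraries lay above both FLOX+GCI libraries, an arrangement that 25.9% of all tested genes also had. C1ql2 had the opposite arrangement, as had 25.8% of tested genes, and the groups overlapped for Pdzd2 and Trpc6. Replicates of a genotype differed as well: replicate 2 was below replicate 1 for 6 markers in FLOX+GCI and for 7 in FBN-ARO-KO+GCI. Over all tested genes this held for 49.6% in FLOX+GCI and 47.5% in FBN-ARO-KO+GCI. The difference between group means exceeded the larger gap between replicates for 7 markers and not for C1ql2, Pdzd2 and Trpc6. The share of all tested genes with such a difference was not computed. The median log2 fold change of the 10 markers (FBN-ARO-KO+GCI over FLOX+GCI) was 0.27, beside -0.01 for all tested genes, of which 48.7% were higher. In whole tissue, fewer cells of a type and less RNA per cell cannot be told apart.

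**Figure D1:**
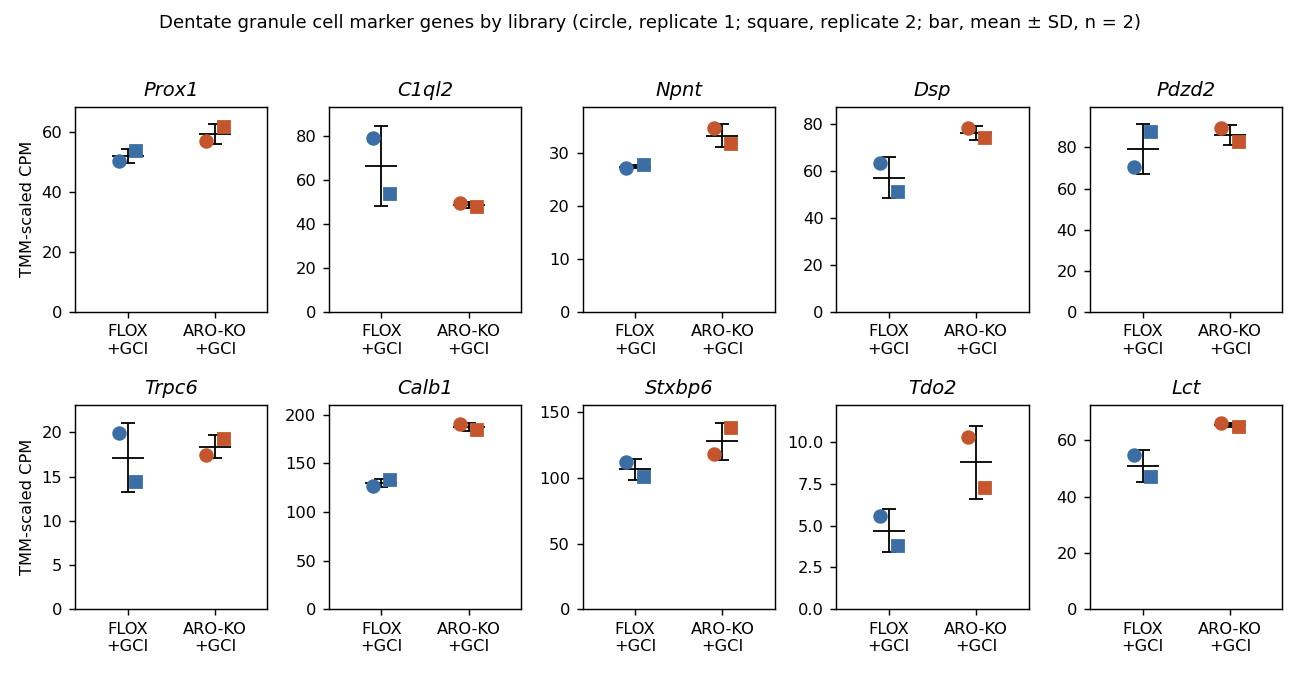
CPM of each marker (vertical axes start at 0) in the 2 FLOX+GCI and the 2 FBN-ARO-KO+GCI libraries, each point a library and each bar the group mean. The groups are separate for 8 markers and overlap for Pdzd2 and Trpc6, and C1ql2 alone is lower in both FBN-ARO-KO+GCI libraries.

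Prox1 encodes the homeobox transcription factor that specifies granule cells and maintains their identity. It lies at chr1:191945660-191994559 on the minus strand of mm9. Prox1 was at 50.5 and 53.8 CPM in FLOX+GCI and at 57.2 and 61.9 CPM in FBN-ARO-KO+GCI, from between 1265 and 1897 counts. The groups were separate by a small step, with means of 52.2 ± 2.37 and 59.6 ± 3.3 CPM (SD, n = 2 each) and a log2 fold change of 0.19 ± 0.09 (SE). Its neighbor on the opposite strand, the lincRNA Gm17566, shares 133 exonic bases with it, and whether counting used strand is not given in the sources used here, so reads there could not be assigned with certainty.

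Calb1 encodes calbindin, the calcium-binding protein that fills mature granule cells and is also made by part of the CA1 pyramidal cells and by interneurons. The gene, with 11 exons, lies at chr4:15808411-15835211 on the plus strand. Calb1 was at 127 and 133 CPM in FLOX+GCI and at 190.1 and 184 CPM in FBN-ARO-KO+GCI. These are the most tightly grouped values of the set, with means of 129.9 ± 4.67 and 187 ± 3.97 CPM (SD, n = 2 each), a mean ratio of 1.44 and a log2 fold change of 0.53 ± 0.07 (SE), against at most 0.07 between replicates. It also has the lowest GC content of the 10, at 36.8%.

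Dsp encodes desmoplakin, which ties intermediate filaments to desmosomes, and in the hippocampus its transcript is concentrated in granule cells. It lies at chr13:38243197-38290446 on the plus strand and has 24 exons. Dsp was at 63.4 and 51.2 CPM in FLOX+GCI and at 78.6 and 74.2 CPM in FBN-ARO-KO+GCI. Both FBN-ARO-KO+GCI libraries were above the higher FLOX+GCI library, with means of 57.3 ± 8.58 and 76.4 ± 3.13 CPM (SD, n = 2 each), and the log2 fold change was 0.42 ± 0.11 (SE). It was 0.27 without FLOX+GCI replicate 2 and 0.58 without FLOX+GCI replicate 1. The gene model Gm10129 on the opposite strand covers 360 of its exonic bases, and 3.28% of the 50-base words of the Dsp transcript also occur in that model.

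Lct encodes lactase, an enzyme known from the intestine whose transcript also marks the granule cell layer. It lies at chr1:130181333-130224895 on the minus strand. Lct was at 54.8 and 47 CPM in FLOX+GCI and at 66 and 64.8 CPM in FBN-ARO-KO+GCI. The FBN-ARO-KO+GCI libraries were nearly equal and both higher, with means of 50.9 ± 5.5 and 65.4 ± 0.903 CPM (SD, n = 2 each) and a log2 fold change of 0.36 ± 0.10 (SE). Npnt encodes nephronectin, an extracellular matrix protein that binds the integrin of Itga8 and Itgb1, and lies at chr3:132544709-132613255 on the minus strand. Npnt was at 27.3 and 27.7 CPM in FLOX+GCI and at 34.9 and 31.8 CPM in FBN-ARO-KO+GCI, and its log2 fold change was 0.28 ± 0.10 (SE). The FLOX+GCI libraries, with 684 counts each, were almost the same, and both lay below FBN-ARO-KO+GCI.

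Tdo2 encodes tryptophan dioxygenase, which opens the kynurenine pathway of tryptophan breakdown and is best known from liver. It lies at chr3:81761012-81780124 on the minus strand. Tdo2 was counted 140 and 94 times in the FLOX+GCI libraries and 342 and 212 times in those of FBN-ARO-KO+GCI, or 5.59 and 3.81 CPM against 10.3 and 7.24 CPM. It was the least abundant marker and had the widest genotype difference of the 10, a mean ratio of 1.87 and a log2 fold change of 0.90 ± 0.25 (SE). Its replicates were also far apart, by up to 0.54 on the log2 scale, and the 95% Poisson intervals of the libraries nearest each other, 4.71 to 6.58 CPM for FLOX+GCI replicate 1 and 6.28 to 8.3 CPM for FBN-ARO-KO+GCI replicate 2, overlapped on counting error alone. Leaving out 1 library in turn gave between 0.62, without FBN-ARO-KO+GCI replicate 1, and 1.21, without FLOX+GCI replicate 1.

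Stxbp6 encodes amisyn, which binds SNARE proteins of the vesicle fusion machinery, and lies at chr12:45953475-46175480 on the minus strand. Stxbp6 was at 112 and 101 CPM in FLOX+GCI and at 118 and 138 CPM in FBN-ARO-KO+GCI. The groups were separate by a step smaller than the gap between the FBN-ARO-KO+GCI replicates, with a log2 fold change of 0.26 ± 0.10 (SE). It was 0.14 without FBN-ARO-KO+GCI replicate 2 and 0.37 without FBN-ARO-KO+GCI replicate 1. Of its 50-base words, 1.61% occur in transcripts of other genes. Reads there may align to several places, and non-unique alignments have a separate counter that was left out of the gene counts.

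Pdzd2, a protein with several PDZ domains, and Trpc6, a cation channel opened by diacylglycerol, were the markers whose groups overlapped. Pdzd2 (chr15:12286809-12669679, minus strand) was at 70.6 and 87.7 CPM in FLOX+GCI and at 89.6 and 82.8 CPM in FBN-ARO-KO+GCI. Trpc6 (chr9:8544432-8680565, plus strand) was at 19.9 and 14.4 CPM in FLOX+GCI and at 17.5 and 19.3 CPM in FBN-ARO-KO+GCI. For each, the FLOX+GCI replicates differed more than the genotypes did, with log2 fold changes of 0.12 ± 0.11 (SE) for Pdzd2 and 0.10 ± 0.17 (SE) for Trpc6. The sign depends on which FLOX+GCI library is used: without replicate 1 Pdzd2 was at -0.02, and without replicate 2 Trpc6 was at -0.12.

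C1ql2 encodes a secreted C1q-like protein that granule cells release at mossy fiber synapses onto CA3. The gene, with 2 exons, lies at chr1:122237159-122239748 on the plus strand. C1ql2 was at 79.2 and 53.5 CPM in FLOX+GCI and at 49.6 and 47.7 CPM in FBN-ARO-KO+GCI. FLOX+GCI replicate 1 stood well above the other libraries, and replicate 2 was close to FBN-ARO-KO+GCI. The log2 fold change was -0.45 ± 0.17 (SE), and it was -0.13 without FLOX+GCI replicate 1 and -0.71 without FLOX+GCI replicate 2. C1ql2 also has the highest GC content of the markers, at 63.4%.

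C1ql3, a close relative made by granule cells as well, had the opposite difference. It was at 204 and 183 CPM in FLOX+GCI and at 264 and 319.5 CPM in FBN-ARO-KO+GCI. The groups were separate, at a log2 fold change of 0.59 ± 0.11 (SE) with an adjusted p of 0.238 in edgeR's quasi-likelihood test. Because the coding sequences are alike, the most similar stretch that shows how reads of one gene differ from the other is printed from the mm9 annotation. The stretch of 120 bases lies in exon 1 of each gene, at chr1:122238199-122238318 (plus strand) in C1ql2 and at chr2:12931947-12932066 (minus strand) in C1ql3, and capitals mark the 17 bases that differ.
C1ql2: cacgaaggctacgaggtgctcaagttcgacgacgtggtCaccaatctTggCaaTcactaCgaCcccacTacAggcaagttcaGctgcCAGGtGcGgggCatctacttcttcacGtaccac
C1ql3: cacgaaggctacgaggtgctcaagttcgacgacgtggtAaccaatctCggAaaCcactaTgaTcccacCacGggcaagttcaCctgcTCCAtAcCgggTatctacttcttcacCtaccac
Of these 17 differences, 12 fall on the third base of a codon. Over the whole coding sequences, 577 of 761 aligned bases (75.8%) were identical and the longest identical run was 38 bases, shorter than the reads of 50 bases. No 50-base word of either transcript occurred in another gene's transcript, so exact matches could not move reads from one to the other. The transcripts differ in GC content, at 63.4% for C1ql2 and 53.2% for C1ql3.

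The genotype ratio followed GC content over all genes, which bears on the markers at either end of its range. Across the 13869 tested genes with a transcript sequence, the Spearman correlation of the log2 ratio with GC content was -0.55, a description across genes, which are not replicates. The same trend separated FBN-ARO-KO+GCI replicate 2 from replicate 1 (-0.48), and it was weak between the FLOX+GCI replicates (0.10). In 20 bins of GC content, the median log2 fold change went from 0.26 at 39.1% GC to -0.25 at 61.7% GC. Among the 10 markers the correlation was -0.53, and it was -0.35 over the 9 without C1ql2. The markers share their libraries, and their GC content ran from 36.8% to 63.4% around a median of 50.7%, close to the 50.6% of all tested genes.

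**Figure D2:**
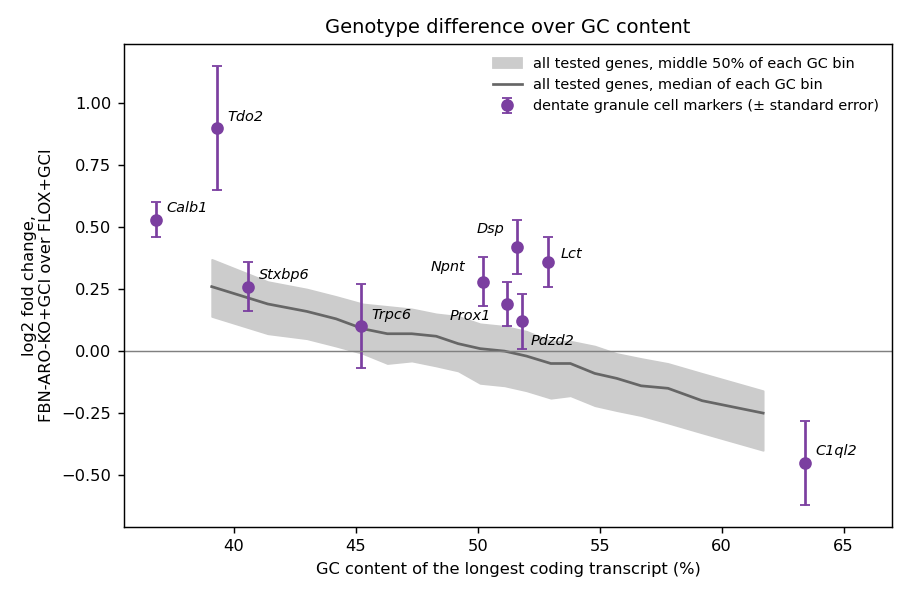
Log2 fold change of each marker (points, ± SE) against the GC content of its longest coding transcript, over the median (line) and middle 50% (band) of all tested genes in bins of GC content. Calb1 and Tdo2 lie above the left end of the band, Stxbp6, Trpc6 and C1ql2 lie along the course of the trend, and Dsp, Lct and Npnt lie above it near 50.7% GC.

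After the dependence on transcript GC content and length was taken out of every library, 9 markers were still higher and C1ql2 lower. Their median was 0.23, beside 0.03 for all tested genes, of which 57.2% were higher with the correction. The libraries of the groups were then separate and higher for 6 markers, against 28.4% of all tested genes, and separate and lower for no marker, against 16% of all tested genes. Dsp (0.41 ± 0.11), Lct (0.39 ± 0.09), Npnt (0.27 ± 0.09) and Prox1 (0.21 ± 0.08, log2 fold change ± SE) kept nearly the values they had as counted. With 1 library left out as well, Dsp ran from 0.25 without FLOX+GCI replicate 2 to 0.60 without FLOX+GCI replicate 1. Tdo2 went to 0.73 ± 0.27, and to 0.35 when FBN-ARO-KO+GCI replicate 1 was also left out. The markers at the ends of the GC range moved most, C1ql2 by the widest step. Of those with low GC content, Calb1 went to 0.25 ± 0.12 with overlapping groups, and to 0.11 without FBN-ARO-KO+GCI replicate 1 and 0.15 without FLOX+GCI replicate 1, and Stxbp6 went to 0.07 ± 0.06. C1ql2 went to -0.11 ± 0.15 with overlapping groups, and to 0.17 when FLOX+GCI replicate 1 was also left out. The corrected levels of C1ql2 were 68.7 and 49.2 CPM in FLOX+GCI and 52 and 57.2 CPM in FBN-ARO-KO+GCI, with FLOX+GCI libraries both above and below the others. Those of Calb1 were 132 and 156 CPM in FLOX+GCI and 189 and 153 CPM in FBN-ARO-KO+GCI, where replicate 1 of FBN-ARO-KO+GCI stood above the other libraries. How much of the trend over GC content arises in the preparation of the libraries was not tested.

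**Figure D3:**
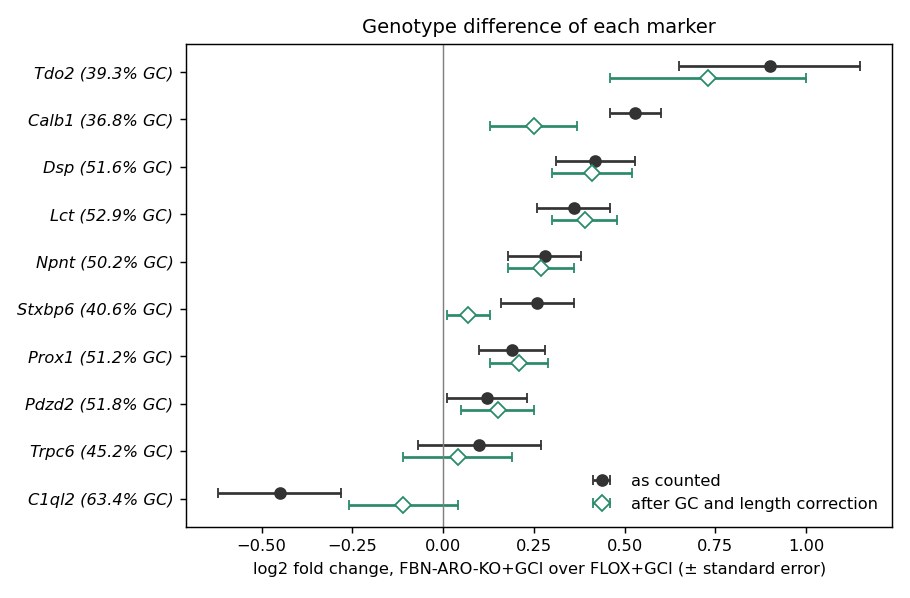
Log2 fold change (FBN-ARO-KO+GCI over FLOX+GCI, ± SE) of each marker as counted (filled circles) and after correction for GC content and length (open diamonds). Dsp, Lct, Npnt and Prox1 hold their place, Calb1 and Stxbp6 move toward 0 and C1ql2 goes from -0.45 to -0.11.

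A list of 12 other genes enriched in granule cells was set beside the markers. In FBN-ARO-KO+GCI, 8 of them were higher and 4 lower, and the median log2 fold change was 0.17. The groups were separate for 7, all of them higher, an arrangement that 25.9% of all tested genes also had. No gene of the list was separate and lower, against 25.8% of all tested genes. None had an adjusted p under 0.05 in edgeR's quasi-likelihood test. C1ql3, Rfx3 and Dock10 were higher at an unadjusted p under 0.05, as were 8.72% of all tested genes, and Dock10 is named after its values were seen. Rfx3, a ciliary transcription factor, was at 0.37 ± 0.10 (SE), and at 0.14 after the correction for GC content. Igfbp5, a binding protein of insulin-like growth factors, was at 0.18 and the axon guidance gene Sema5a at 0.16, whereas Smad3, a mediator of TGF-β signaling, was at -0.01 and the activity-dependent transcription factor Mef2c at -0.03. With the correction the median of the list was 0.10. Then 4 genes were separate and higher, against 28.4% of all tested genes, and 1 was separate and lower, against 16%. Then 3 genes were higher at an unadjusted p under 0.05, as were 7.9% of all tested genes. Mef2c, at -0.23, was lower at that threshold, as were 3.51% of all tested genes.

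The lists of other hippocampal cell types had medians near 0 as counted, but not all after the correction for GC content. The CA1 pyramidal cell list (7 genes) had a median log2 fold change of -0.05, the CA2 list (7 genes) -0.09, the CA3 list (5 genes) -0.01 and the mossy cell list (5 genes) -0.01. Their most abundant genes were at -0.04 (Mpped1) and 0.03 (Fibcd1) for CA1, at -0.17 (Rgs14) and -0.24 (Necab2) for CA2, at -0.19 (Bok) and -0.01 (Grik4) for CA3, and at -0.01 (Calb2) and 0.27 (Calcrl) for mossy cells. With the correction the medians were 0.00 for CA1, 0.09 for CA2, 0.11 for CA3 and 0.08 for mossy cells, beside 0.10 for the other granule cell genes and 0.23 for the markers. Rgs14 (0.03), Necab2 (0.09) and Bok (0.11) then turned positive, Mpped1 was at 0.04, Fibcd1 at 0.22 and Calb2 at 0.12. All tested genes had a median of 0.03 with the correction, the value of Rgs14. Calcrl fell from 0.27 to -0.00, and Grik4 was at 0.00. Genes of young granule cells, 5 of 6 of which passed the filter, had a median of 0.06 (0.18 with the correction), genes of interneurons (8) -0.09 (-0.05), and genes used by all neurons (8) gave 4 higher and 4 lower (6 and 2). Over all tested genes 48.7% were higher as counted and 57.2% with the correction. The 3 interneuron genes (Slc32a1, Sst and Npy, named after their values were seen) were lower at an unadjusted p under 0.05, as were 7.82% of all tested genes. With the correction only Npy was (-0.32), Slc32a1 going to -0.06 and Sst to -0.12.

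Relative to the CA1 list in the same library, the markers stood higher in FBN-ARO-KO+GCI as counted. The markers were chosen on this contrast, so these relative levels describe the set and are no test of it. The relative levels were not computed with the correction for GC content. The mean log2 CPM of the markers minus that of the CA1 list was -0.64 and -0.80 in the FLOX+GCI libraries against -0.39 and -0.44 in those of FBN-ARO-KO+GCI, so the groups were separate. Relative to the list of all neurons it was -3.95 and -4.09 against -3.69 and -3.85, also without overlap. Relative to the other granule cell genes it was -0.45 and -0.62 against -0.35 and -0.53, and there the groups overlapped. The summed level of the markers as counted was 609 and 574 CPM in FLOX+GCI and 712 CPM in both FBN-ARO-KO+GCI libraries. Calb1, whose groups overlapped with the correction, made the largest part of this difference, with group means of 129.9 and 187 CPM. Stxbp6, at 107 and 128 CPM, came next, and its log2 fold change was 0.07 with the correction.

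**Figure D4:**
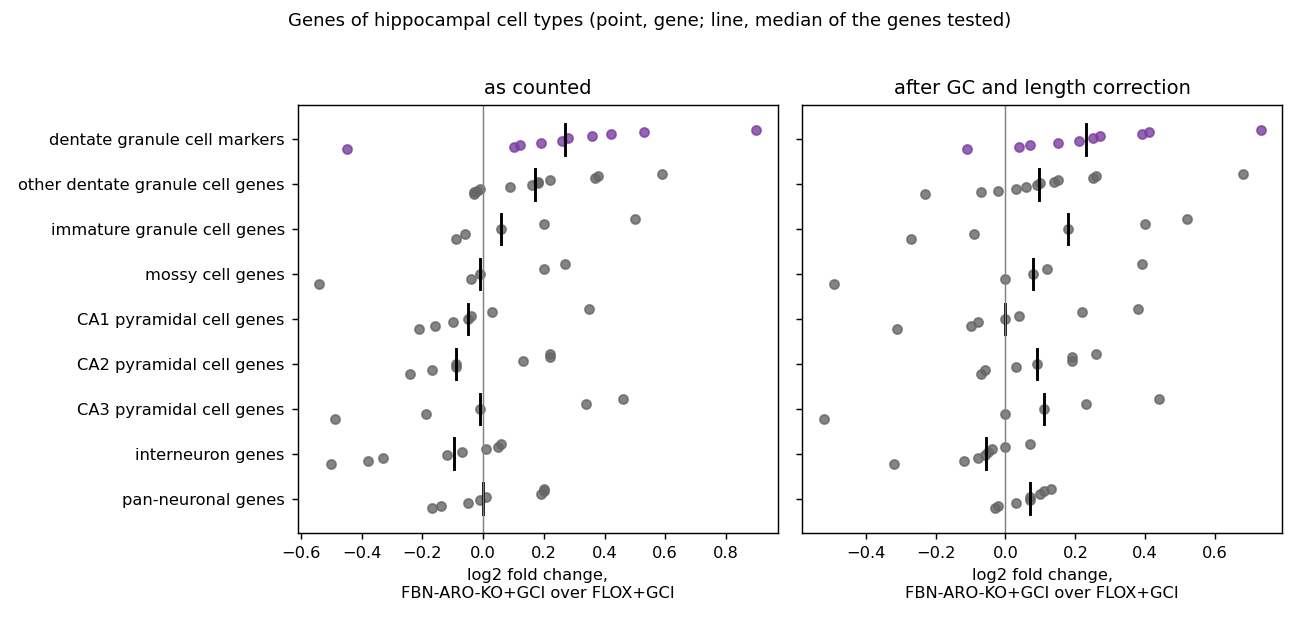
Log2 fold change of each tested gene (points) in the lists of markers, other granule cell genes and other cell types, with the median of each list as a bar. The markers have a median of 0.27 and the other granule cell genes of 0.17, and the CA1, CA2, CA3 and mossy cell lists lie between -0.09 and -0.01, all as counted, whereas after correction for GC content these 4 lists were at 0.00 to 0.11 and the other granule cell genes at 0.10.

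Genes that mark striatum, thalamus and choroid plexus, some of which hippocampal cells also express, differed between libraries. The list of 5 striatal genes had a summed level of between 87.5 and 90.0 CPM in FLOX+GCI and between 78.9 and 81.4 CPM in FBN-ARO-KO+GCI and a median log2 fold change of -0.52. The 4 thalamic genes summed to between 55.4 and 93.1 CPM in FLOX+GCI and between 52.8 and 56.1 CPM in FBN-ARO-KO+GCI, the high value being FLOX+GCI replicate 2. The choroid plexus list (6 of 7 genes tested) summed to between 199.9 and 226 CPM in FLOX+GCI and between 195 and 244 CPM in FBN-ARO-KO+GCI, most of it from Enpp2. Ttr, the transthyretin gene that defines choroid plexus, was at 26.5 and 21.9 CPM in FLOX+GCI and at 8.93 and 15.6 CPM in FBN-ARO-KO+GCI, a lower level with separate groups (log2 fold change -0.98, also with the correction). Kcnj13 was at -1.45 with overlapping groups, and these 3 genes are named after their values were seen. No gene of these lists was at 0 in every library. Their part in the differences of the markers was not tested.

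Partners and relatives of the markers were taken as a list of 33 genes, of which 28 passed the filter, 14 higher and 14 lower, with a median of 0.01. None had an adjusted p under 0.05 in edgeR's quasi-likelihood test. Around C1ql2, C1ql1 was lower (-0.42 ± 0.17, SE) and, at 65.8% GC, went to -0.04 with the correction, while the C1q-like receptor Adgrb3 was at 0.03, the kainate receptor subunits Grik2 and Grik4 at 0.20 and -0.01, and Nrxn3 at -0.01. Around Dsp, the desmosomal plakophilin Pkp2 was at 42.4 and 41 CPM in FLOX+GCI and at 50.5 and 52.5 CPM in FBN-ARO-KO+GCI. Its groups were separate, with a log2 fold change of 0.31 ± 0.08 (SE), 0.32 with the correction, and an adjusted p of 0.238. Jup, or plakoglobin, was at -0.15, and the desmosomal cadherins Dsg2 and Dsc2 were at 0.09 and 0.51, the latter on at most 16 counts.

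The receptor subunits of nephronectin, Itga8 and Itgb1, were at 0.11 and -0.10. Among channels related to Trpc6, Trpc1 was at 0.25, Trpc4 at 0.07, Trpc5 at 0.21 and Trpc7 at 0.16. Among vesicle fusion genes beside Stxbp6, Snap25 was at 0.20, Vamp2 at 0.08, Stxbp5 at 0.07 and Stx1a at -0.18. The calcium buffers Calb2 and Pvalb, which mark other hippocampal neurons, were at -0.01 and -0.12. Of 9 genes of tryptophan metabolism, 4 passed the filter, and all 4 had negative values. Ido2 (-0.08 ± 0.24), Afmid (-0.16 ± 0.25) and Kyat1 (-0.15 ± 0.13, SE) were near 0 for their standard errors. Tph2, the serotonin-forming hydroxylase, was at -0.67 ± 0.32 (SE) on at most 46 counts. These 4 were at -0.06, -0.07, -0.02 and -0.71, in that order, with the correction. With the correction the sign turned for Adgrb3 (-0.08), Jup (0.06), Itga8 (-0.02), Stx1a (0.03), Stxbp5 (-0.09) and Calb2 (0.12). The median of all tested genes was then 0.03. The other tryptophan genes, Ido1, Kmo, Kynu, Haao and Aadat, were below the filter.

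Compared per length of transcript, the markers spanned a 16.6-fold range. Calb1 was highest at 37.6 CPM per kilobase (mean of the 4 libraries, longest coding transcript), followed by C1ql2 at 28.8 and Stxbp6 at 27.9, and these neighbors overlapped over the libraries. Prox1 followed at 13.5 and overlapped with neither neighbor. Lct (9.42), Dsp (7.01), Npnt (6.59), Trpc6 (6.36) and Pdzd2 (6.16) formed a run in which each overlapped the next. Tdo2, at 2.26, was below all the others in every library.

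**Figure D5:**
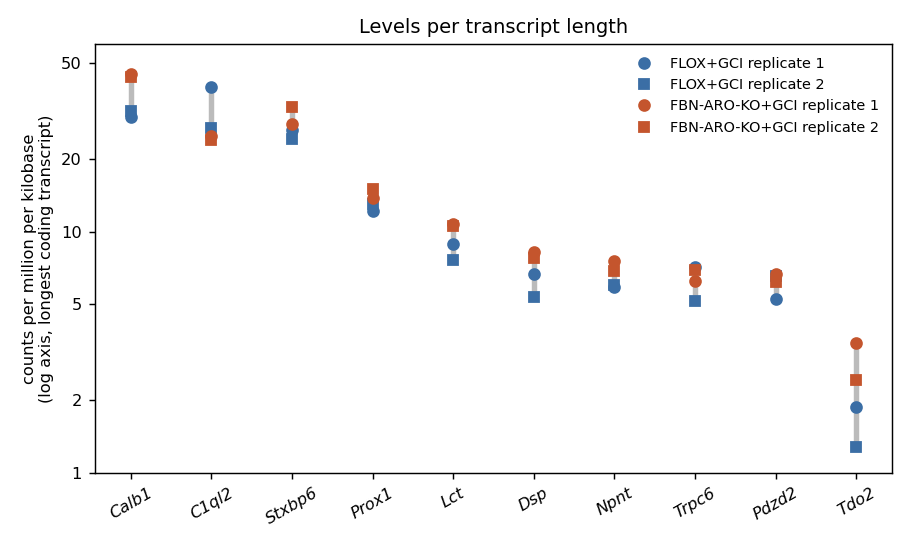
CPM per kilobase of the longest coding transcript (log axis) of each marker in the 4 libraries, ordered by the mean. Calb1, C1ql2 and Stxbp6 lie at the top, and Tdo2 lies below all the others at a mean of 2.26.

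Promoters were available from RefSeq (GRCm38.p6) for 9 markers, all but Calb1, as 11 windows of 300 bases on which both strands were searched. The promoter of Tdo2 is shown because the gene had the widest difference, and aromatase makes the ligand of the receptors that bind estrogen response elements. Its 250 bases before the start, chr3:81975729-81975978 on the minus strand, carry in capitals TATAAA and TGACC, the reverse complement of GGTCA.
Tdo2: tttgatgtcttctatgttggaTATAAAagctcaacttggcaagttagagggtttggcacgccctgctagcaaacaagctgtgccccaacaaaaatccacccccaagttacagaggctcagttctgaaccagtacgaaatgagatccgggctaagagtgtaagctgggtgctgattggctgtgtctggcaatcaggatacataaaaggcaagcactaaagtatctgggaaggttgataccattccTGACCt
The full estrogen response element, GGTCA and TGACC with any 3 bases between them, was in no marker promoter and in 0.07% of all 32851 promoters. Its arm GGTCA, which is part of the full element, was in 4 of the 11 marker promoters (of Lct, Npnt and Tdo2) and in 40.5% of all. The cAMP response element TGACGTCA (1.79% of all) and the AP-1 site TGANTCA (7.81%) were in none. The E-box CAGATG was in 1 of the 11, of Prox1 (17.2% of all), and TATAAA in 2, of Prox1 and Tdo2 (13.6%).

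The genes whose profile over the 4 libraries was most like the mean of the markers were Doc2b, Ppfibp1 and Glul. Likeness was the Euclidean distance between deviations of log2 CPM from each gene's own mean, at 0.0308, 0.0313 and 0.0344 against a median of 0.36 over 12733 other genes. Doc2b, a calcium sensor of vesicle release, was at 145 and 128 CPM in FLOX+GCI and at 164 and 162 CPM in FBN-ARO-KO+GCI. Glul, the glutamine synthetase known from astrocytes, was the most abundant of them, at between 1286 and 1643 CPM. With 4 libraries such likeness is common, and 102 genes lay nearer to the mean profile than the nearest marker did.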

How the data were processed

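Hippocampal RNA of ovariectomized female mice was sequenced in 4 libraries, 2 per genotype, as 50 nt single-end reads. The authors used TopHat to align to mm9 and HTSeq to count, and the deposited values are raw counts for each symbol with no normalization. TopHat2 2.0.8b is named in the submitters' processing notes. The strand setting and annotation release were not given in the sources used here. The 5 counters of unassigned reads were left out. Reads with no feature or an ambiguous one made up between 12.7% and 14.2% of the sum of these reads and those counted on genes. The counter of non-unique alignments, at between 16276853 and 20518156 per library, is outside this share, as are unaligned and low-quality reads.

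Genotypes were compared over all genes in R 4.3.3 by quasi-likelihood (edgeR 4.0.16), after TMM scaling and filterByExpr at a minimum count of 10, and p-values were adjusted by Benjamini-Hochberg with a threshold of 0.05. For 1 gene and 2 libraries per group, exact permutation cannot give a two-sided p under 0.333. For the correction, natural splines with 5 degrees of freedom over transcript GC content and length were fitted, library by library, to deviations from gene means and entered as an offset. Positions, lengths and GC content came from GENCODE M1 on NCBIM37, which is mm9. The fitting steps were tested on simulated data.

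The markers and all gene lists were chosen with earlier results of these data known. Named genes were the markers, the 6 most abundant other granule cell genes, the partner genes past the filter (some list genes are not reported here), the 2 most abundant genes of each pyramidal and mossy cell list, and the 3 genes of nearest profile (mean of at least 50 counts). Alternatives were DESeq2 1.42.0, other scalings, filters and tests, the replicate number as a block, the correction, other transcript lengths, and each library left out.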

Additional observations from a re-analysis of the deposited data

How the results depend on the processing

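The number of markers higher in FBN-ARO-KO+GCI was 9 under every other scaling, filter, test or block and between 8 and 10 with 1 library left out, alone or with the correction. The number of genes with an adjusted p under 0.05, 2 by quasi-likelihood in edgeR, was 279 with DESeq2, 294 with the likelihood ratio test, 5 with every gene of at least 1 count and 184 with the replicate block. It ran from 0 to 193 with 1 library left out, 193 without FLOX+GCI replicate 1, 127 without FLOX+GCI replicate 2 and 0 without either FBN-ARO-KO+GCI library. Same-numbered libraries deviated together only weakly (correlation 0.129 over 2 pairs), so the replicate numbers were not taken to pair samples. The median of the markers was 0.16 with the correction and without FBN-ARO-KO+GCI replicate 1, a combination chosen after seeing the data, whose range over the libraries left out was 0.16 to 0.29, and that of the other granule cell genes was 0.10 with the correction alone. C1ql3 passed an adjusted p of 0.05 with DESeq2, the likelihood ratio test and the block. So did Dock10 with DESeq2 and the likelihood ratio test, and Rfx3 and Glul with DESeq2. Markers were also among the calls of these fits, which is no test of them since they were chosen on this contrast. They were Dsp and Calb1 with DESeq2 (279 of 17821 genes called) and the likelihood ratio test (294 of 14527). With the block (184 of 14527) they were Calb1 and Tdo2. The order of levels kept 8 of 10 ranks with the union of exons and 1 with the shortest transcript, which is 359 bases for Stxbp6 and 1051 for Pdzd2. With 2 libraries per group, no outlying library could be tested for.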

Other observations

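Glial and vascular lists, which took no part in the comparisons above, differed among libraries of the same genotype. The 4 astrocyte genes had a median log2 fold change of -0.11 and summed to between 3729 and 4131 CPM in FLOX+GCI and between 3962 and 4596 CPM in FBN-ARO-KO+GCI. The 3 oligodendrocyte genes had a median of 0.07 and the 3 microglial genes of 0.02. The 3 endothelial genes had a median of -0.25 and summed to 139 and 96 CPM in FLOX+GCI and to 111 and 80.9 CPM in FBN-ARO-KO+GCI, so that replicate 2 was lower in both genotypes. The choroid plexus list had a median of 0.13 and the thalamic list of -0.26.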
